A study of Oryctolagus cuniculus with 3 samples.

Results

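In rabbit blastocysts, 10 genes of yolk sac endoderm, most of them also used by liver, were followed: APOA1, APOB, APOE, APOH, MTTP, RBP4, TF, AHSG, HPX and LRP2. They are a list of names, apolipoproteins and carrier proteins of visceral endoderm, drawn up with earlier results of these data known. All 10 were among the 6502 named genes of the authors' table of array values, through 17 of its 22839 non-control probes. The array holds 26 probes of the 10 genes, and the other 9 lie outside that table.

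The study compared slow-frozen with vitrified rabbit morulae. In slow freezing the temperature is lowered step by step, whereas in vitrification embryos in strong cryoprotectant are cooled so fast that the solution sets as a glass. The frozen group consisted of embryos recovered as morulae on day 3 after artificial insemination, slow-frozen, placed in recipient does and collected on day 6, 3 days after transfer. The vitrified group had the same history except for the cooling, which took place after exposure at 20 °C to 12.5% and then 20% each of dimethyl sulphoxide and ethylene glycol. The sources used here do not give the slow-freezing solution, the strain of rabbit or how many embryos made up an RNA sample. Both groups were therefore thawed or warmed, transferred and grown in a recipient uterus, and embryos that were never stored were not analysed here.

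Each of 3 arrays with 2 colours compared frozen with vitrified embryos directly. The labels call them biological replicates, and they do not say whether the embryos of different arrays came from separate donors or recipients, so the spread may be partly technical. Each value is a log2 ratio, frozen over vitrified, so that a value below 0 is a lower signal in frozen embryos. Frozen embryos were labelled with Cy5 on replicates 1 and 3 and with Cy3 on replicate 2. Scanner signals were used for replicates 1 and 3. Those of replicate 2 were not used here, so that the direction of its ratios is likely rather than stated. Replicate 1 had a correlation over the 10 spike-in probes of the table of -1.0 with replicate 2 and of 0.99 with replicate 3, as it would if the ratios of replicate 2 had been turned to frozen over vitrified and each spike-in mix went with its usual dye. Over all probes the correlation of replicate 1 was -0.36 with replicate 2 and -0.01 with replicate 3, and that of replicates 2 and 3 was 0.48. Means and medians with the sign of replicate 2 turned are given beside the others for this reason, and called turned values. Median signals of the table's probes were 419 in the frozen and 418 in the vitrified channel on replicate 1, and 377 and 381 on replicate 3, and none of these probes was saturated. The 3 arrays limit the precision, and an exact sign-flip test of 3 ratios cannot go below p = 0.25 (2-sided).

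Visceral endoderm is the outer epithelium of the early yolk sac, known best from the mouse, and it arises from the hypoblast that lines the blastocyst cavity. It takes up maternal proteins and lipids through endocytic receptors, breaks them down or repackages them, and secretes lipoproteins and plasma-type carrier proteins toward the embryo, as the liver does later. APOA1 and APOB are the structural proteins of high-density and of chylomicron, very low-density and low-density lipoproteins, MTTP loads lipid onto APOB, and LRP2 (megalin) is a large receptor that takes up many of the carriers.

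The whole embryo was measured, so the name of the gene group was set against other markers. Of 38 regulators and markers of hypoblast and visceral endoderm, 17 were measured in the table, among them GATA4, CER1, DAB2 and COL4A2. AFP and TTR, defining secreted products of mouse visceral endoderm, had probes on the array but none in the table, and no probe of either was well above background in more than 2 of the 4 scanner channels. ALB, the main plasma protein of liver, was well above background in 0 of the 4. No probe on the array was named for other markers such as HNF4A, SOX17, CUBN and AMN, and 21 of the 38 had a named probe. Markers of trophoblast (11 measured of 17 listed) and epiblast (6 of 15) were present as well, so that the values belong to the embryo as a whole.

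Probes of 60 bases carry the results, and those of the 5 genes that matter most are shown here, 5′ to 3′ in the sense of the transcript, so that a reader can see where each signal comes from. Positions in the transcript and the genome are the array annotation's own, and their genome build is unnamed in the sources used here. APOA1 had a single probe, starting at transcript base 147, at chr1:99597012-99597071 on the plus strand. RBP4 had a single probe at base 561, at chr18:41283230-41284096 on the minus strand, a span of 867 bases that includes an intron. Its capitals mark a stop codon that closes its only open reading frame.
APOA1: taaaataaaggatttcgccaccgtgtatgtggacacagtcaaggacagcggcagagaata
RBP4: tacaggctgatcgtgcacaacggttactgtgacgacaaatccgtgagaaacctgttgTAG

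APOB had 3 table probes that abut one another near the 3′ end of its coding sequence, from base 13451 to base 13630, on the minus strand of chromosome 2. They share no base, so their values below are not those of overlapping probes. The 13571 probe, at chr2:170081713-170081772, was the brightest.
APOB 13451: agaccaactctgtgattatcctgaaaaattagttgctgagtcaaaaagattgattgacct
APOB 13511: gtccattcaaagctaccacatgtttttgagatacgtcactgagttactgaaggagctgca
APOB 13571: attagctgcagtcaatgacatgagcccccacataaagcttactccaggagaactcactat

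TF had 5 overlapping probes that start within 95 bases of one another, on the plus strand of chromosome 14. Capitals mark bases that another of the 5 probes also covers, and the first, the brightest and the last are shown. The brightest lies at chr14:27756663-27756722, and the last, at chr14:27756727-27758125, spans an intron.
TF 1930: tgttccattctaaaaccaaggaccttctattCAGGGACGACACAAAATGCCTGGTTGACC
TF 1961: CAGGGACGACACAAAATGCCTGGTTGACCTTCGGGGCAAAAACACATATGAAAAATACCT
TF 2025: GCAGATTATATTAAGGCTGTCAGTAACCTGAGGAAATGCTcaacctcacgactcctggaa

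LRP2 had 2 probes that do not overlap, at bases 9708 and 9849, on the minus strand of chromosome 7. The brighter, at chr7:108889476-108889535, ends in a stop codon, in capitals. The other, at chr7:108889617-108889855, spans an intron.
LRP2 9708: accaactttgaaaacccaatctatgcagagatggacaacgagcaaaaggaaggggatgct
LRP2 9849: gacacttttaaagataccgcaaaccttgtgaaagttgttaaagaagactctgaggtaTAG

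The other 5 genes had 1 probe each in the table. Those of APOH (chr19:51121559-51121618, plus strand) and HPX (chr1:147446247-147446306, minus strand) each lie in 1 block of the genome. Those of MTTP (chr15:50210793-50212382, minus strand) and AHSG (chr14:78957562-78958192, minus strand) span introns. The APOE probe has no position on a chromosome in the annotation.

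The 10 genes did not move as a block. The means of APOA1, APOB, RBP4 and TF were 1.88-fold to 2.04-fold lower in frozen than in vitrified embryos. Those of APOH, AHSG, HPX and LRP2 lay near 0. Of these, APOH, AHSG and HPX are plasma proteins, as are APOA1, APOB, RBP4 and TF. The probes of APOH, AHSG and HPX, and that of MTTP (mean -0.44), fall outside the brightest 75% of probes, whereas that of LRP2 lies inside. Whether weak signal held the ratios of APOH, AHSG and HPX near 0 was not tested. None of the 10 genes passed limma's moderated test at an adjusted p of 0.05 with Benjamini-Hochberg adjustment over all 22839 probes. The same test called 0.0% of all genes and 0 of the 22839 probes, and 1020 probes had an unadjusted p under 0.05. The spread between arrays was wide, with SDs on the log2 scale of up to 1.46 (RBP4). In whole embryos, fewer cells of a type and less RNA per cell cannot be told apart.

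**Figure D1:**
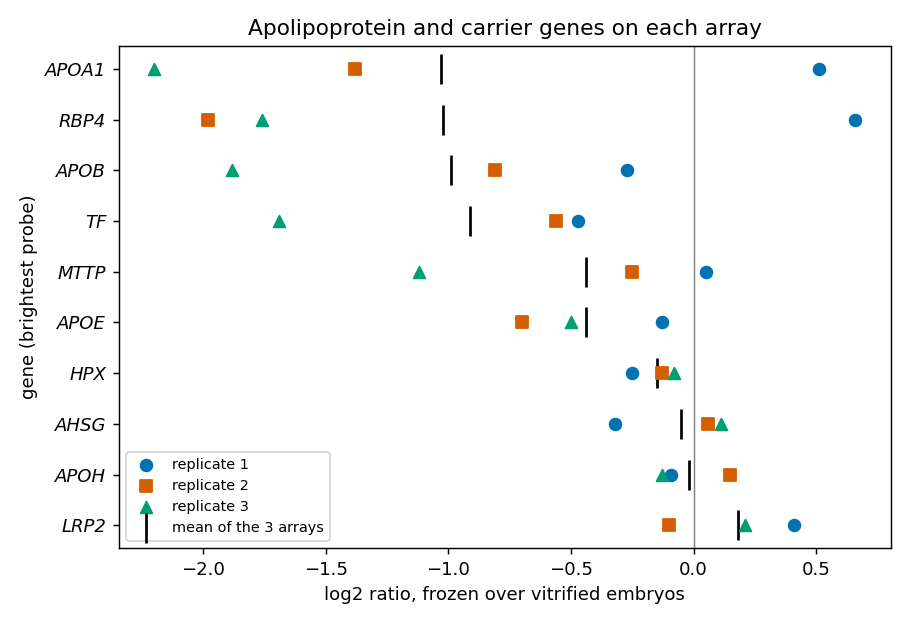
Log2 ratio of frozen over vitrified embryos (x axis) of the brightest probe of each of the 10 genes (y axis), with 1 symbol per array and a black bar for the mean of the 3 arrays. APOA1 and RBP4 lie right of 0 on replicate 1 and far left on replicates 2 and 3, APOB and TF lie left of 0 on every array, and APOH, AHSG, HPX and LRP2 stay close to 0.

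APOA1 had ratios of 0.51, -1.38 and -2.20 on replicates 1, 2 and 3. The signal was higher in frozen embryos on replicate 1 and lower on the other arrays, 4.61-fold on replicate 3. The mean was -1.03 ± 1.39 (SD, n = 3 arrays; limma, unadjusted p = 0.093, adjusted p = 1.0), and -0.10 with the sign of replicate 2 turned. In processed scanner signal, APOA1 had 450 in frozen and 316 in vitrified embryos on replicate 1, and 357 in frozen and 1644 in vitrified embryos on replicate 3.

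APOB, the protein on which the triglyceride-rich lipoproteins are built, had ratios of -0.27, -0.81 and -1.88 on replicates 1, 2 and 3. It lay below 0 on every array, but replicate 3 was far from replicate 1. The mean was -0.99 ± 0.82 (SD, n = 3; limma, unadjusted p = 0.023, adjusted p = 0.98), and -0.45 with the sign of replicate 2 turned. The other 2 probes gave means of -1.14 and -1.11, and on each array the 3 probes lay within 0.42 of one another. The scatter between arrays of APOB was thus much larger than the scatter between its probes. APOB signal was 136 in frozen and 163 in vitrified embryos on replicate 1, against 88.2 and 326 on replicate 3.

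APOE, a ligand through which lipoprotein remnants bind receptors of the LDL receptor family, had ratios of -0.13, -0.70 and -0.50. All 3 were below 0, and each was nearer to 0 than that of APOB. The mean was -0.44 ± 0.29 (SD, n = 3; limma, unadjusted p = 0.039, adjusted p = 1.0). With the sign of replicate 2 turned the mean of APOE was 0.027, on the other side of 0. APOE signal was 253 in frozen and 276 in vitrified embryos on replicate 1, and 306 and 431 on replicate 3.

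APOH, a phospholipid-binding plasma glycoprotein, had ratios of -0.09, 0.15 and -0.13, with a mean of -0.02 ± 0.15 (SD, n = 3), and -0.12 with the sign of replicate 2 turned. Its signals were low, at 43.0 in frozen and 45.9 in vitrified embryos on replicate 1 and 69.3 and 75.7 on replicate 3. The arrays fell on both sides of 0.

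MTTP, the microsomal protein that transfers triglyceride to nascent APOB, had ratios of 0.05, -0.25 and -1.12. The lowest value was that of replicate 3, where MTTP signal was 46.7 in frozen and 102 in vitrified embryos. On replicate 1 MTTP had signals of 43.6 and 42.1. The mean was -0.44 ± 0.61 (SD, n = 3; limma, unadjusted p = 0.13, adjusted p = 1.0), and -0.27 with the sign of replicate 2 turned. APOB and MTTP had their lowest ratio on the same array, as did APOA1, APOH and TF.

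RBP4, the plasma carrier of retinol, had ratios of 0.66, -1.98 and -1.76 on replicates 1, 2 and 3. Like APOA1 it was higher in frozen embryos on replicate 1 and lower on the other arrays, 3.93-fold on replicate 2 and 3.38-fold on replicate 3. The mean was -1.02 ± 1.46 (SD, n = 3; limma, unadjusted p = 0.11, adjusted p = 1.0). With the sign of replicate 2 turned it was 0.29, on the other side of 0. RBP4 signal was 725 in frozen and 460 in vitrified embryos on replicate 1, and 458 in frozen and 1549 in vitrified embryos on replicate 3.

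TF, transferrin, the iron carrier of plasma, had ratios of -0.47, -0.56 and -1.69. It was below 0 on every array. The mean was -0.91 ± 0.68 (SD, n = 3; limma, unadjusted p = 0.017, adjusted p = 0.92), and -0.53 with the sign of replicate 2 turned. The 5 TF probes had means from -0.91 to -0.89, and on replicate 3 they lay between -1.75 and -1.68. Since the probes overlap and read the same RNA, they show how precisely TF was measured on an array and not how embryos vary. TF signal was 2179 in frozen and 3026 in vitrified embryos on replicate 1, and 1771 and 5707 on replicate 3.

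AHSG, a fetal plasma glycoprotein that binds calcium phosphate, had ratios of -0.32, 0.06 and 0.11, with a mean of -0.05 ± 0.23 (SD, n = 3), and -0.09 with the sign of replicate 2 turned. Its signals were 82.5 in frozen and 103 in vitrified embryos on replicate 1, and 105 and 97.4 on replicate 3. The arrays fell on both sides of 0.

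HPX, hemopexin, which carries free haem, had ratios of -0.25, -0.13 and -0.08, with a mean of -0.15 ± 0.09 (SD, n = 3; limma, unadjusted p = 0.29, adjusted p = 1.0), and -0.06 with the sign of replicate 2 turned. Its probe was printed 5 times on the array. The spots of replicate 1 lay between -0.31 and -0.13 and those of replicate 3 between -0.20 and 0.04, so that the mean of HPX was smaller than the range over the spots of 1 array.

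LRP2, the endocytic receptor at the apical surface of visceral endoderm and kidney tubule, had ratios of 0.41, -0.10 and 0.21. It was the 1 gene of the 10 with a mean above 0, at 0.18 ± 0.26 (SD, n = 3; limma, unadjusted p = 0.30, adjusted p = 1.0), and 0.24 with the sign of replicate 2 turned. Its second probe had a mean of 0.07. LRP2 signal was 16382 in frozen and 12290 in vitrified embryos on replicate 1, and 12447 and 10744 on replicate 3. On replicate 3, whose direction is settled, the ratio of this receptor lay above those of APOA1, APOB, RBP4 and TF.

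**Figure D2:**
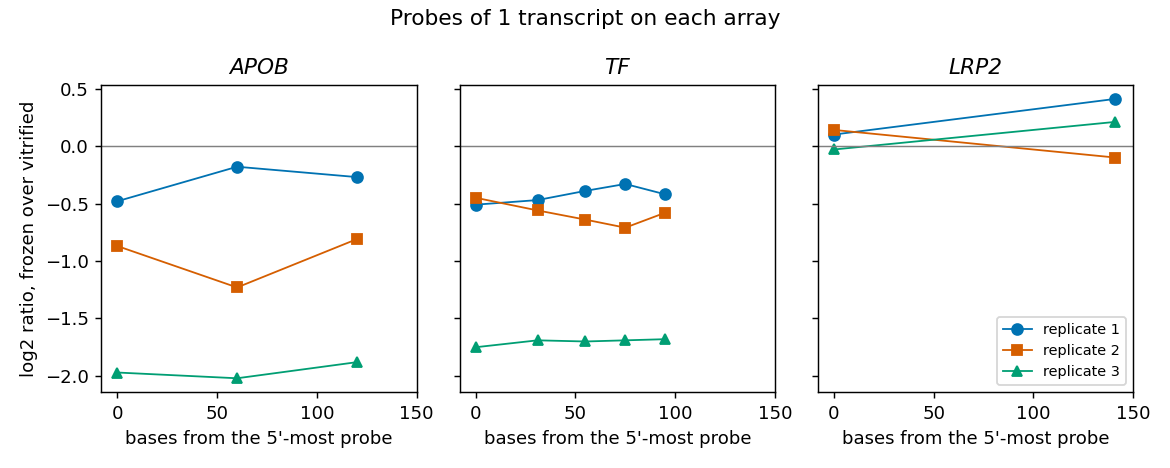
Log2 ratio of frozen over vitrified embryos (y axis) of each table probe of APOB, TF and LRP2 against the distance of its start from that of the 5′-most probe of the gene (x axis, bases), with 1 line per array. The line of replicate 3 lies apart from the others at every probe of APOB (-2.02 to -1.88) and TF (-1.75 to -1.68), while the LRP2 lines cross close to 0.

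Counted over the 10 genes, 9 means lay below 0, against 53.3% of all 6502 genes, and with the sign of replicate 2 turned 7 did, against 58.8%. Means of APOA1, APOB, RBP4 and TF, 4 of the 10, were at least 1.5-fold lower in frozen embryos, against 1.81% of all genes, and 0 were at least 1.5-fold higher, against 0.415%. With the sign of replicate 2 turned, 0 of the 10 were 1.5-fold lower, against 1.40% of all genes. Below 0 on all 3 arrays were 4 genes (APOB, APOE, TF and HPX), against 11.6%, and 2 of them (APOB and TF) also had a mean at least 1.5-fold lower, against 1.22%. With the sign of replicate 2 turned, APOH alone lay below 0 on all 3 arrays, 1 of 10 against 15.3% of all genes. An unadjusted p under 0.05 with lower signal in frozen embryos was found for 3 genes (APOB, APOE and TF), against 2.77%, and with the sign of replicate 2 turned for 0, against 3.57%. The median of the 10 means was -0.44, and that of all genes was -0.01. The turned medians were -0.10 and -0.04.

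If replicate 2 has its likely direction, replicate 1 stood apart from the other arrays for some of the genes. For APOB and TF, replicate 3 lay apart instead. The 10 ratios had medians of -0.11, -0.41 and -0.81 on replicates 1, 2 and 3, whereas the median of all genes stayed between -0.08 and 0.04. APOA1, MTTP and RBP4 lay above 0 on replicate 1 and below 0 on replicates 2 and 3, a pattern held by 14.2% of all genes. With the sign of replicate 2 turned, these genes lie above 0 on replicates 1 and 2 and below 0 on replicate 3. Without replicate 1, 4 of the 10 genes passed limma's test with lower signal in frozen embryos, against 2.08% of all genes. For RBP4 the mean of replicates 2 and 3 was -1.87, 3.65-fold lower (adjusted p = 0.001), and for APOA1 it was -1.79, 3.47-fold lower (adjusted p = 0.0051). For APOB it was -1.35, 2.54-fold lower (adjusted p = 0.023), and for TF it was -1.13, 2.18-fold lower (adjusted p = 0.049). APOE, at -0.60, gave an adjusted p of 0.062, and MTTP, at -0.69, gave 0.13. Without replicate 3 none of the 10 passed, and the means were nearer 0, at -0.44 for APOA1, -0.54 for APOB, -0.66 for RBP4, -0.52 for TF and -0.10 for MTTP. Without replicate 2 none passed either, with -0.85 for APOA1, -1.08 for APOB, -0.55 for RBP4, -1.08 for TF and -0.54 for MTTP. Over all 22839 probes the fit without replicate 1 called 796, with 243 higher and 553 lower in frozen embryos, and these calls rest on the likely direction of replicate 2.

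The channel signals of replicates 1 and 3, which share their dye orientation, were read to see in which channel the arrays differed. Signals of 1 channel also hold effects of a spot or array that both channels share and that the ratio removes. Whether the differences lie in the embryos was not tested. The 2 arrays were normalized separately, so the difference between them was taken less its median over all probes of the table. In frozen embryos APOA1 was 0.18 lower on replicate 3 than on replicate 1 on the log2 scale, a value inside the range from the 5th to the 95th percentile of all probes (-0.72 to 0.80). In vitrified embryos APOA1 was 2.56 higher on replicate 3, outside the corresponding range of -0.73 to 0.86. RBP4 differed in the same way, by -0.50 in frozen and 1.94 in vitrified embryos. MTTP (0.26 in frozen and 1.46 in vitrified embryos), APOB (-0.46 and 1.18) and TF (-0.14 and 1.1) followed them. APOH was higher on replicate 3 in both, by 0.85 in frozen and 0.91 in vitrified embryos. APOE (0.43 and 0.83), AHSG (0.51 and 0.11), HPX (0.00 and -0.15) and LRP2 (-0.24 and -0.01) stayed within both ranges. For APOA1, RBP4, MTTP, APOB and TF the difference between the arrays was larger in the channel of the vitrified embryos, which was brighter on replicate 3. For RBP4 (-0.50) and APOB (-0.46) the channel of the frozen embryos was also dimmer there. Both of these values lie inside the range of all probes (-0.72 to 0.80).

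**Figure D3:**
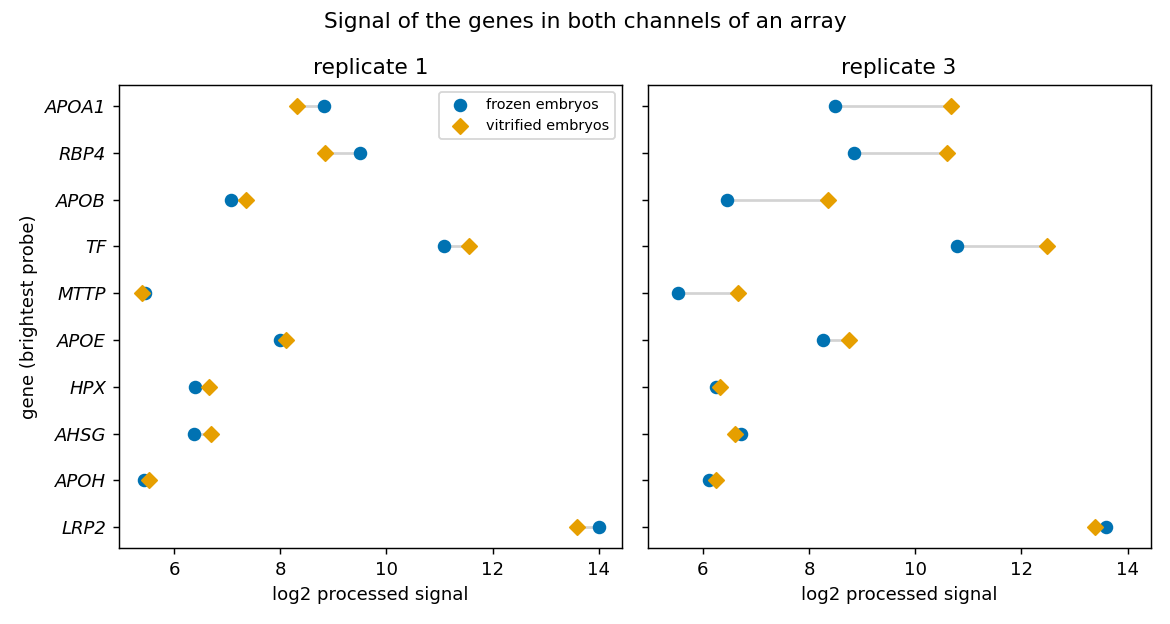
Log2 processed signal (x axis) of the brightest probe of each gene (y axis) in frozen embryos (circles) and vitrified embryos (diamonds) on replicates 1 and 3, with a grey line joining the channels of an array; levels of different probes are not comparable. The diamonds of APOA1, RBP4, APOB, TF and MTTP lie further right on replicate 3, while the circles of RBP4 (9.50 and 8.84) and APOB (7.08 and 6.46) lie further left there. Less the median of all probes, the shifts of these circles lie between the 5th and 95th percentiles of all probes.

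Some markers of other cells had ratios of the same signs. CPS1, a urea cycle enzyme of liver, had ratios of 0.97, -2.12 and -2.26. The haemoglobin gene HBB2 had ratios of 2.62, -3.77 and -3.59, HBA had 1.88, -2.23 and -1.79, and ALAS2, which makes haem in red cell precursors, had 0.34, -1.73 and -1.21. These 4 genes were named after their values were seen. They share the signs of APOA1 and RBP4 on every array. Over the 4 measured genes of a list of 12 liver markers, summed signal was 1512 in frozen and 1034 in vitrified embryos on replicate 1, and 1065 and 3936 on replicate 3, with ALB not well above background. The brightest of the 4 was CPS1, with a mean log2 signal of 9.86, against 8.53 for FGB, 7.55 for HP and 5.69 for AMBP. FGB and AMBP also had the signs of CPS1, whereas HP had ratios of -0.65, -2.48 and 0.18. Of 11 listed red cell markers, ALAS2 alone was measured, with 74 in frozen and 58 in vitrified embryos on replicate 1 and 61 and 143 on replicate 3. The list does not hold the symbols HBB2 and HBA, whose probes were far brighter. Their mean log2 signals were 13.65 and 11.86, against 6.29 for ALAS2. The summed signal of 6 uterine markers was 1498 in frozen and 1714 in vitrified embryos on replicate 1 and 850 and 839 on replicate 3. That of 4 white blood cell markers was 360 and 330 on replicate 1 and 490 and 445 on replicate 3. Trophoblast markers (11 genes) summed to 26031 in frozen and 34744 in vitrified embryos on replicate 1, and to 37767 and 37265 on replicate 3, a sum set mostly by the bright keratin probes. Medians over the 11 were -0.05, 0.24 and 0.04 on replicates 1, 2 and 3. GATA3, a trophoblast transcription factor, had ratios of -0.04, 0.56 and 0.76, and without replicate 1 it passed limma's test as higher in frozen embryos (adjusted p = 0.045). PPARG, of the same list, had ratios of 0.53, -0.87 and -1.0. Without replicate 1 PPARG passed limma's test as lower in frozen embryos (adjusted p = 0.013), and it was named after its values were seen. Epiblast markers (6 genes) summed to 9278 in frozen and 13758 in vitrified embryos on replicate 1, and to 8194 and 14037 on replicate 3. That sum is carried by POU5F1, with ratios of -0.75, -0.52 and -1.62, whereas DPPA5 (-0.15, 0.13 and 0.42) and ETV5 (-0.03, 0.12 and 0.37) lay above 0 on replicates 2 and 3 (both named after their values were seen). Medians over the 6 epiblast markers were -0.39, 0.03 and -0.04. The part of these cells in the ratios of the 10 genes was not tested.

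Related genes were read from lists, and no member of any list passed the test on 3 arrays. The counts of means below 0 in each list stand against 53.3% of all 6502 genes, and 58.8% turned. Among other apolipoproteins, 6 of 22 were measured and 3 had means below 0, with a median of -0.12. Turned, 6 did, with a median of -0.22. APOA2, the other main protein of high-density lipoprotein, had ratios of -0.37, -0.73 and -1.45, with a mean of -0.85 ± 0.55 (SD, n = 3; limma, adjusted p = 0.87), and -0.36 turned. Its 5 probes had means from -0.87 to -0.80. APOM, a carrier of sphingosine phosphate on high-density lipoprotein that was named after its values were seen, had ratios of 0.18, -1.01 and -1.58. Its signs on the 3 arrays were those of APOA1.

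Lipoprotein assembly and uptake genes lay close to 0 as a list: 18 of 31 were measured, 12 had means below 0, and the median was -0.04 (11 and -0.06 with the sign of replicate 2 turned). ABCA1, which loads lipid onto APOA1, had ratios of -0.17, -0.86 and -0.92, with a mean of -0.65 ± 0.42 (SD, n = 3; limma, adjusted p = 0.92), and -0.08 turned. VLDLR and SCARB1, receptors for very low-density and high-density lipoprotein, had means of 0.04 ± 0.32 and 0.18 ± 0.21, and of 0.19 and -0.05 turned. Endocytic receptors and adaptors had a median of -0.06 over the 7 measured of 16, and -0.05 turned. FCGRT, a member of this list named after its values were seen, had ratios of 0.4, -0.86 and -0.76, with the signs of APOA1 and RBP4. Its mean was -0.41, and 0.17 turned. Without replicate 1 FCGRT passed limma's test as lower in frozen embryos (adjusted p = 0.021). DAB2, the adaptor that links LRP2 to clathrin, had ratios of 0.80, 0.15 and -0.08. Like LRP2, it had a mean above 0, at 0.29 ± 0.45, and 0.19 turned.

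All 6 measured of 28 other plasma and liver-type proteins had means below 0, with a median of -0.67. Turned, 4 of the 6 did, with a median of -0.07, and FGB (0.20) and HP (0.67) lay above 0. FGB, a chain of fibrinogen, had ratios of 0.56, -1.70 and -1.66, FGG, another chain, had 0.26, -0.91 and -1.32, and AMBP, the precursor of a protease inhibitor, had 0.13, -0.89 and -1.26. These 3 genes again had the signs of APOA1 and RBP4. HP, haptoglobin, which binds free haemoglobin, had another pattern, with -0.65, -2.48 and 0.18. All 4 were named after their values were seen.

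Retinol handling genes numbered 8 measured of 21, with 7 means below 0 and a median of -0.31 (6 and -0.08 turned). CRABP2, which delivers retinoic acid to its receptors, had ratios of -0.39, -0.80 and -1.1 and a mean of -0.76 ± 0.35 (SD, n = 3; limma, adjusted p = 0.81), and -0.23 turned. CYP26A1, which breaks retinoic acid down, had -0.32, -0.39 and -0.58, and was named after its values were seen. Unlike RBP4, both lay below 0 on every array. CRABP1, of the same list and named after its values were seen, had 0.36, -0.73 and -0.84, with the signs of RBP4. Its mean was -0.40, and 0.09 turned. Without replicate 1 CRABP1 passed limma's test as lower in frozen embryos (adjusted p = 0.022). Iron and haem genes numbered 11 measured of 23, with 9 means below 0 and a median of -0.10 (8 and -0.09 turned). TFRC, the receptor that takes up iron-loaded TF, had ratios of -0.90, -0.01 and 0.16.

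Hypoblast and visceral endoderm markers had a median of -0.52, with 15 of the 17 measured below 0. The turned median was -0.11, with 9 below 0. Their medians were -0.20, -0.39 and -0.65 on replicates 1, 2 and 3, an order that the 10 genes share. PLAT, a plasminogen activator, had ratios of -0.63, -0.28 and -0.95, and CITED1, a transcriptional cofactor, had -0.03, -0.73 and -1.02. GATA4, a transcription factor of primitive endoderm, had -0.50, -0.05 and -0.38, and CER1, an inhibitor of Nodal signalling made by anterior visceral endoderm, had -0.59, -0.14 and -0.93. COL4A2, a basement membrane collagen chain, had -0.43, -0.51 and -0.80 (mean -0.58 ± 0.19, SD, n = 3; limma, adjusted p = 0.83), with a mean of -0.24 turned. DKK1 and COL4A1, both named after their values were seen, had 0.59, -1.58 and -1.37 and 0.30, -0.91 and -1.06. The list therefore held some genes below 0 on every array, like APOB and TF, and others above 0 on replicate 1, like APOA1 and RBP4. Nuclear receptors and other regulators of lipid genes had a median of -0.04 over the 8 measured of 21, and 0.02 turned.

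**Figure D4:**
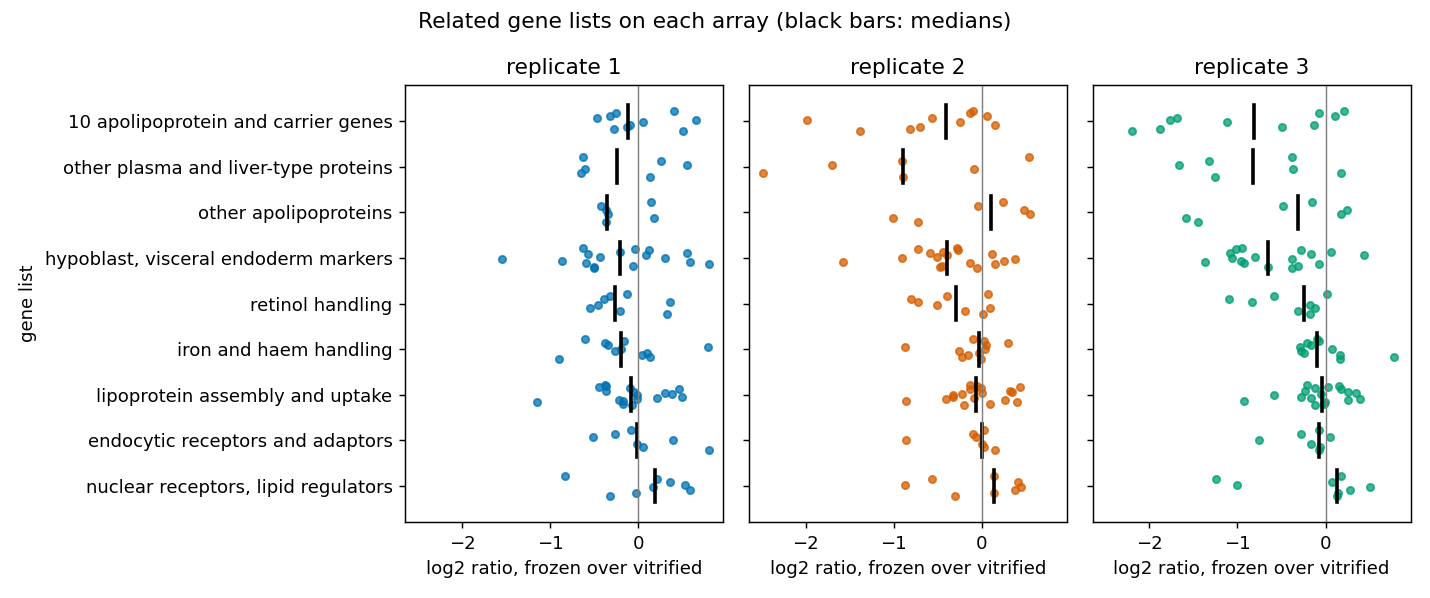
Log2 ratio of frozen over vitrified embryos (x axis) of each measured gene of 9 lists (y axis), with 1 panel per array, 1 point per gene and a black bar for the median of the list. The 10 genes and the other plasma and liver-type proteins reach furthest left on replicates 2 and 3, while lipoprotein uptake, endocytic and nuclear receptor lists have medians near 0.

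The profile of the 10 genes over the arrays (medians of -0.11, -0.41 and -0.81) was nearest, among named genes outside all lists, to CHCT1 and PROCR, each at a Euclidean distance of 0.08 over the 3 arrays. IGFBP6, RETREG1 and FAM161B followed at 0.13, 0.16 and 0.18.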

How the data were processed

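The deposited files were scanner output for replicates 1 and 3 and 1 table with a column for each of the 3 arrays. The submitters' processing notes and the file headers name Agilent Feature Extraction 10.10.1.1 as the reader of the images. The authors' scanner files give, per the file headers, a processed intensity in each channel after background subtraction and dye normalization, and log10 red over green. The values of the deposited table are log2 ratios whose scale, centring and direction it does not state. On replicates 1 and 3 they equalled log2 processed red over green to within 2.8e-06 and 2.4e-06, that is, frozen over vitrified. Column medians were -0.015, 0.021 and 0.017 for replicates 1, 2 and 3. All table probes passed the scanner software's background test (well above background) in the 4 channels read, and no source used here describes how the authors filtered probes. The table has 22865 rows, 26 of them controls, and 0 other columns of sample values. The labels' protocols state 100 ng of total RNA per labelling.

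Probes were named through accessions (8381), gene identifiers (5294) or symbols and synonyms (241) in the RefSeq gene table (assembly mOryCun1.1). With 5 probes carrying several symbols and 8918 none, 6502 genes were named. The probe with the highest mean log2 signal on the scanner arrays stands for a gene, and its other table probes are given by their values or range. Each log2 ratio was tested against 0 with limma 3.58.1 (lmFit, eBayes; R 4.3.3), with Benjamini-Hochberg adjustment over 22839 probes at 0.05. Tables were joined in Python 3.11.15 (pandas 2.3.3) and drawn with matplotlib 3.10.9. The 10 genes and all lists were chosen with earlier results of these data known. Named genes are the 10, list members of 1 sign on all arrays with a mean of at least 1.5-fold (up to 4 per direction and list), fixed genes where measured, and the 5 nearest in profile. Others are said to be named after their values were seen. Lists have no test. Alternatives were the sign of replicate 2, each array left out, the variance prior, a dye covariate, centring, Agilent's log ratio, normexp (offset 50) with loess, probe filters and the probe rule.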

Additional observations from a re-analysis of the deposited data

Results flagged for a closer look

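Signal was also present in a probe that the authors' table leaves out. APOB has 4 further probes on the array at transcript bases 6794 to 6855, upstream of those in the table, and 11 of their 16 channel readings on replicates 1 and 3 were well above background. Of all array probes, 54.4% to 68.6% were well above background, depending on the channel. The probe at base 6834 passed in all 4 channels, with log2 ratios of frozen over vitrified embryos of -0.69 on replicate 1 and -1.51 on replicate 3. Both lie below 0, as the ratios of the 3 table probes of APOB do on these arrays. Over all 4 further probes of APOB the ratios ran from -0.69 to 0.2 on replicate 1 and from -2.17 to -1.0 on replicate 3. The 5 further probes of AHSG, at bases 1376 to 1380, were well above background in 1 of 20 readings.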

How the results depend on the processing

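Every alternative but leaving out replicate 1 called 0 probes with limma, with 351 to 10460 probes at an unadjusted p under 0.05, the most being over all 43603 array probes. Leaving out each replicate gave 0 to 796 called probes, 0 to 4 called genes among the 10 and medians of the 10 from -0.64 to -0.30, and the highest counts came without replicate 1. The median was -0.95 over the 6 genes among the brightest 75% of probes, a setting that drops APOH, MTTP, AHSG and HPX. With the sign of replicate 2 turned, the median of the 10 was -0.10 and means changed side for APOE (0.027), RBP4 (0.29), SCARB1 (-0.05), SCGB1A1 (0.027), FGB (0.20), HP (0.67), CPS1 (0.27), DKK1 (0.27), COL4A1 (0.048), HBA (0.77), HBB2 (0.93) and ALAS2 (0.28). The means of FCGRT (0.17), PPARG (0.13) and CRABP1 (0.09) also changed side when turned. With dye as a covariate APOH gave 0.019 and VLDLR -0.031. Leaving out each replicate gave APOH -0.11 to 0.027 (0.011 without replicate 1), AHSG -0.13 to 0.084, TFRC -0.45 to 0.077, VLDLR -0.14 to 0.17 and HBA -2.01 to 0.044. HP gave 0.034 after normexp and loess. HBA gave 0.044 also with Agilent's log ratio and with all array probes. The cause was not tested. No other setting changed the side of a mean among the 10. No paired analysis was possible because the design is already paired: each ratio sets frozen against vitrified embryos of 1 array, the test against 0 is that paired test, and a further block cannot be added.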
